A study of Rattus norvegicus with 22 samples.

Results

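Transcripts of 5 enzymes of the tricarboxylic acid (TCA) cycle were followed in the livers of young adult male rats: citrate synthase (Cs), the gamma subunit of the NAD-dependent isocitrate dehydrogenase (Idh3g), the mitochondrial NADP-dependent isocitrate dehydrogenase (Idh2), dihydrolipoamide S-succinyltransferase (Dlst) and mitochondrial malate dehydrogenase (Mdh2). They were taken by name from the authors' table of male offspring, where each has 1 row, so they make up 5 of its 1325 gene symbols in 1365 rows. The authors had already selected those rows for a difference between the groups. The 5 genes are therefore described, and their tests carry no independent evidence that they differ. None of the 5 is among the 69 rows of the female table (0 of 5), so females are not analysed here for these genes.

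The animals were Wistar rats sampled at postnatal day 110. The 6 control males were offspring of mothers on a control diet, and the 5 MO males were offspring of mothers on an obesogenic diet (MO, maternal obesity). Each animal gave 1 liver library, and the sources used here do not say whether animals shared a litter. The p-values therefore rest on the variation among these 11 animals.

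The TCA cycle runs in the mitochondrial matrix and oxidises the acetyl group of acetyl-CoA, passing electrons to the respiratory chain as NADH and reduced flavin. In liver it also supplies carbon for other routes: citrate leaves for fatty acid synthesis, oxaloacetate and malate for glucose synthesis, and 2-oxoglutarate connects the cycle with amino acid breakdown. All 5 enzymes are encoded in the nucleus, and their proteins are imported into mitochondria.

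All 5 transcripts were lower in MO males. The decreases lay close together, from 28.6% for Mdh2 to 38.5% for Dlst when the difference of mean log2 values is turned into a ratio. They were close to the decrease of the listed transcripts in general. The median log2 fold change was -0.56 over the 5 genes and -0.58 over all 1365 rows. No row was listed with a log2 size under 0.48, and the lower rows had quartiles of -0.69 and -0.52, so a narrow range is general in the table. Abundances are in RPM, the reads of a transcript relative to the total of its library, and log2 fold changes are differences of mean log2(RPM + 1), MO minus control. The count of rows past the limma threshold (adjusted p of 0.05) was 1365 of 1365, or 100% (96.5% lower and the rest higher), as the selection makes nearly certain. That 5 of 5 members were past it as lower is at the background.

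Promoters from RefSeq (build GRCr8) are shown for Cs, Idh3g and Dlst, the members whose MO animals all lay below every control. That separation was found in 29.9% of all rows, and whether the promoters bear on the decrease was not tested. Each sequence holds the 250 bases before the annotated start, 5′ to 3′ on the gene's strand. Capitals mark matches, on either strand, to 5 motifs: CCAAT (the CCAAT box), GGGCGG (the GC box), CCGGAAG (an ETS site of the kind bound by GABP), AAGGTCA (a nuclear receptor half-site of the kind bound by estrogen-related receptors) and GCATGCGC (the core bound by NRF1). Cs lies at chr7:1348139-1348388 (plus strand), Idh3g at chrX:156675483-156675732 (minus strand) and Dlst at chr6:110489456-110489705 (plus strand).
Cs: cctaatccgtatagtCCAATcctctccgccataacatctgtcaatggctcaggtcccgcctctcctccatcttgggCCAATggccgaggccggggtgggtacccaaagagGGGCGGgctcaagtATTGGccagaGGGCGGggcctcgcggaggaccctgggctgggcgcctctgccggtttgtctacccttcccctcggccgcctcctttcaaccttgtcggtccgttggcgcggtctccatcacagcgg
Idh3g: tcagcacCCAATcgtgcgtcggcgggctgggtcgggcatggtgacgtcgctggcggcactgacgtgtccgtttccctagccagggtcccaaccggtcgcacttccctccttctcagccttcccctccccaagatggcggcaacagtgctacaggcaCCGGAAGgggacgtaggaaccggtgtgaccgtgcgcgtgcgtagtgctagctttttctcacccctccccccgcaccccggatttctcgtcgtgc
Dlst: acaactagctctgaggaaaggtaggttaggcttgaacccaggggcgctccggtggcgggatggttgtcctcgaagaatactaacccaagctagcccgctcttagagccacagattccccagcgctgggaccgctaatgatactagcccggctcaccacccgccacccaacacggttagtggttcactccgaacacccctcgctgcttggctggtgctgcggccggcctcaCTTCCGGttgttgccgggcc

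None of the 5 motifs searched for was found in all 5 promoters. The CCGGAAG motif was found in 3 of 5, Dlst (first base 20 bases before the start), Idh3g (94 bases) and Mdh2 (242 bases), and in 7.27% of 33469 promoter windows of the same length. Over the 1035 windows of genes in the male table that share was 12%. GGGCGG was found in Cs, Idh2 and Mdh2, against 30.5% of all windows and 56.6% of those of listed genes. CCAAT was found in Cs, Idh2 and Idh3g, against 34% and 40.5%. AAGGTCA and GCATGCGC were found in 0 of 5, against 3.99% and 2.2% of all windows and 3% and 4.44% of those of listed genes. With shares this low, 0 of 5 does not set the members apart. The Cs window held the most matches, 3 of CCAAT and 2 of GGGCGG. GC content was 60% to 68.8% in the 5 windows, with a median of 51.2% over all windows and 59.2% over those of listed genes. A match describes the letters only.

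The entry of acetyl groups into the cycle was represented by Cs (chromosome 7), which joins acetyl-CoA with oxaloacetate to form citrate. Control males lay between 30.05 and 46.1 RPM with a median of 33.3 RPM, and MO males 1 to 5 were at 25.2, 19.8, 26.8, 28.7 and 20.5 RPM. The groups did not overlap: the highest MO animal was below the lowest control. The means were 34.9 ± 5.83 RPM (SD, n = 6) and 24.2 ± 3.91 RPM (SD, n = 5). In limma the log2 difference was -0.51 ± 0.17 (SE, adjusted p = 0.011). The change was among the smaller ones of the table, ranking 1072 of 1365 from the largest decrease.

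The next oxidation, of isocitrate to 2-oxoglutarate, is carried out by 2 mitochondrial enzymes, both represented here. Idh3g (chromosome X) encodes a regulatory subunit of the NAD-dependent enzyme, whose NADH feeds the respiratory chain. Control males lay between 38.4 and 64.4 RPM with a median of 43.2 RPM, and MO males 1 to 5 were at 37.2, 30.2, 30.9, 35.7 and 21.5 RPM. Again no MO animal reached the lowest control, although MO male 1 came within 1.12 RPM of it. Mean abundance was 46.2 ± 9.41 RPM in controls (SD, n = 6) against 31.1 ± 6.16 RPM in MO males (SD, n = 5). This gave a log2 difference of -0.56 ± 0.18 in limma (SE, adjusted p = 0.01).

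Idh2 (chromosome 1) encodes the NADP-dependent enzyme, which supplies mitochondrial NADPH for glutathione and thioredoxin reduction. Control males lay between 40.4 and 77.2 RPM with a median of 50.4 RPM, and MO males 1 to 5 were at 47.7, 23.6, 30.8, 51.3 and 26.9 RPM. MO males 1 and 4 lay within the control range, and MO males 2, 3 and 5 lay below every control. Idh2 had the largest spread of the 5 genes, with a standard deviation within groups of 0.41 on the log2 scale, against 0.22 to 0.34 for the others. The means, 53.7 ± 13.5 RPM (SD, n = 6) and 36.1 ± 12.6 RPM (SD, n = 5), differed by -0.59 ± 0.22 on the log2 scale in limma (SE, adjusted p = 0.014).

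Dlst (chromosome 6), the core subunit of the 2-oxoglutarate dehydrogenase complex, carries the lipoyl arm that transfers the succinyl group to coenzyme A. Control males lay between 114.7 and 192 RPM with a median of 124 RPM, and MO males 1 to 5 were at 80.7, 74.6, 97.6, 86.4 and 72.3 RPM. The groups did not overlap, and the gap between them was 17.2 RPM. Dlst had the largest decrease of the 5 genes, with means of 136 ± 29.6 RPM in controls (SD, n = 6) against 82.3 ± 10.1 RPM in MO males (SD, n = 5) and a log2 difference of -0.70 ± 0.17 in limma (SE, adjusted p = 0.004). It ranked 314 of 1365 from the largest decrease.

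Mdh2 (chromosome 12) closes the cycle by oxidising malate to oxaloacetate and also serves the malate-aspartate shuttle. Control males lay between 149.7 and 292 RPM with a median of 207 RPM, and MO males 1 to 5 were at 170.2, 127, 176, 169 and 100.5 RPM. MO males 1, 3 and 4 lay within the control range, and MO males 2 and 5 lay below every control. The difference was the smallest of the 5, at -0.49 ± 0.20 on the log2 scale in limma (SE, adjusted p = 0.022). The means were 208 ± 48.6 RPM (SD, n = 6) and 148 ± 33.2 RPM (SD, n = 5). In the authors' deposited table Mdh2 has a log2 size of 0.49 and a p-value of 0.0407, and Idh2 a p-value of 0.0404. No row of that table has a log2 size under 0.48 or a p-value above 0.0496, so these 2 genes are near the edge of what was listed.

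**Figure D1:**
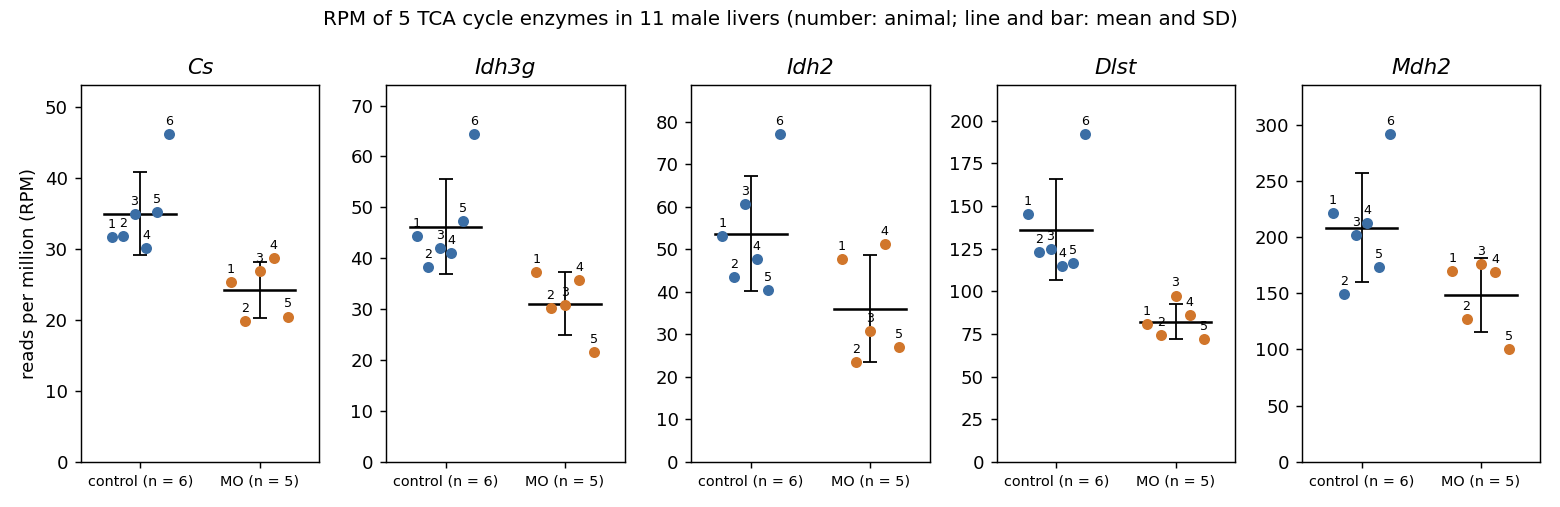
RPM (vertical axis, from 0) of the 5 transcripts in the 6 control and 5 MO males; each point is an animal with its number, the line is the group mean and the bar the SD. The groups are separate for Cs, Idh3g and Dlst, MO males 1 and 4 reach the controls for Idh2, MO males 1, 3 and 4 do so for Mdh2, and control male 6 is the highest animal in every panel.

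Complete separation of the groups, with every MO animal below every control, was found for 3 of 5 members and for 408 of 1365 rows, or 29.9%. An exact permutation test over the 462 ways to choose 5 of 11 animals gave two-sided p-values of 0.0022 for Cs, Idh3g and Dlst, the smallest this design can give, 0.045 for Idh2 and 0.03 for Mdh2. After adjustment over the table these were 0.013, 0.047 and 0.036, and 97.9% of all rows passed this test as well.

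The same libraries were high or low for all members. Control male 6 had the highest value of the 11 animals in 5 of 5 members, and MO males 2 and 5 held the lowest 2 places in 5 of 5. The other listed transcripts were placed alike in these libraries. The median listed row stood at 29.3 RPM in control male 6 and at 18.5 to 22.9 RPM in the other controls, and at 12.2 and 12.3 RPM in MO males 2 and 5 against 14.9 to 15.7 RPM in the other MO males. Summed over all listed rows, RPM came to 12.02% ± 1.91 of the library in controls (SD, n = 6) against 7.55% ± 0.906 in MO males (SD, n = 5). Some rows repeat the values of another row and were counted each time, so these sums are above the share of reads. Without control male 6, limma adjusted p for Mdh2 was 0.050003 and its log2 fold change -0.38. The other 4 still passed, at -0.43 to -0.60, as did 1352 of 1365 rows. Leaving out MO male 5 put Mdh2 at -0.36 (limma adjusted p = 0.091), and leaving out MO male 2 put Mdh2 at -0.44 (limma adjusted p = 0.057) and Idh2 at -0.46 (limma adjusted p = 0.051).

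**Figure D2:**
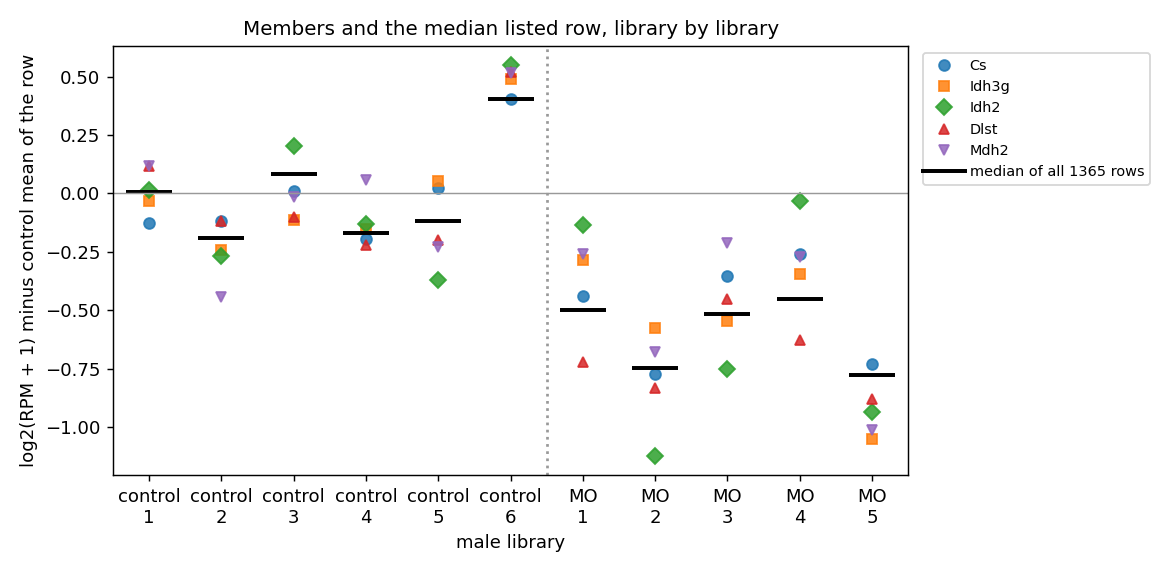
Difference of log2(RPM + 1) from the control mean of the same row (vertical axis) in each of the 11 male libraries (horizontal axis); coloured symbols are the 5 members and the black bars the median over all 1365 rows. Most members lie above the black bar in control male 6 (bar at 0.41, members at 0.41 to 0.55). Most lie below it in MO male 5 (bar at -0.78, members at -1.05 to -0.73).

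The members were therefore also set relative to the median listed row of their own library. On this scale the groups overlapped for all 5 genes. The difference between MO and control males was 0.07 ± 0.09 (SE) for Cs, 0.02 ± 0.11 (SE) for Idh3g, -0.01 ± 0.14 (SE) for Idh2, -0.12 ± 0.09 (SE) for Dlst and 0.10 ± 0.12 (SE) for Mdh2 on the log2 scale. Cs, Idh3g and Mdh2 changed sign, and 0 of 5 passed (limma adjusted p = 0.997 each; 0 of 5 at an unadjusted p under 0.05), with 5.27% of all rows past the threshold, 24 lower (1.76%) and 48 higher. Because the listed rows were nearly all chosen as lower, this scale takes away whatever they share. The source of the shared shift was not tested, since transcripts outside the table are not analysed here.

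The spread between animals within groups was smaller on this scale. For Cs the standard deviation within groups went from 0.22 to 0.09, for Dlst from 0.24 to 0.11, for Idh3g from 0.28 to 0.17, for Mdh2 from 0.34 to 0.20 and for Idh2 from 0.41 to 0.26 (log2 units, 11 animals in 2 groups). Idh2 stayed the most variable. Its MO values were divided into MO males 1 and 4, at 1.60 and 1.65 above the library median and so above every control (1.02 to 1.37), and MO males 2, 3 and 5, at 0.90, 1.0 and 1.08. Controls 1 to 4 and 6 lay at 1.18 to 1.37, above those 3 MO animals. In MO male 5, Idh3g (0.76) and Mdh2 (2.94) were the lowest of the 11 animals, while Cs (0.69) and Dlst (2.47) were inside the control range. For Mdh2, control male 2 was almost as low and also rounds to 2.94.

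**Figure D3:**
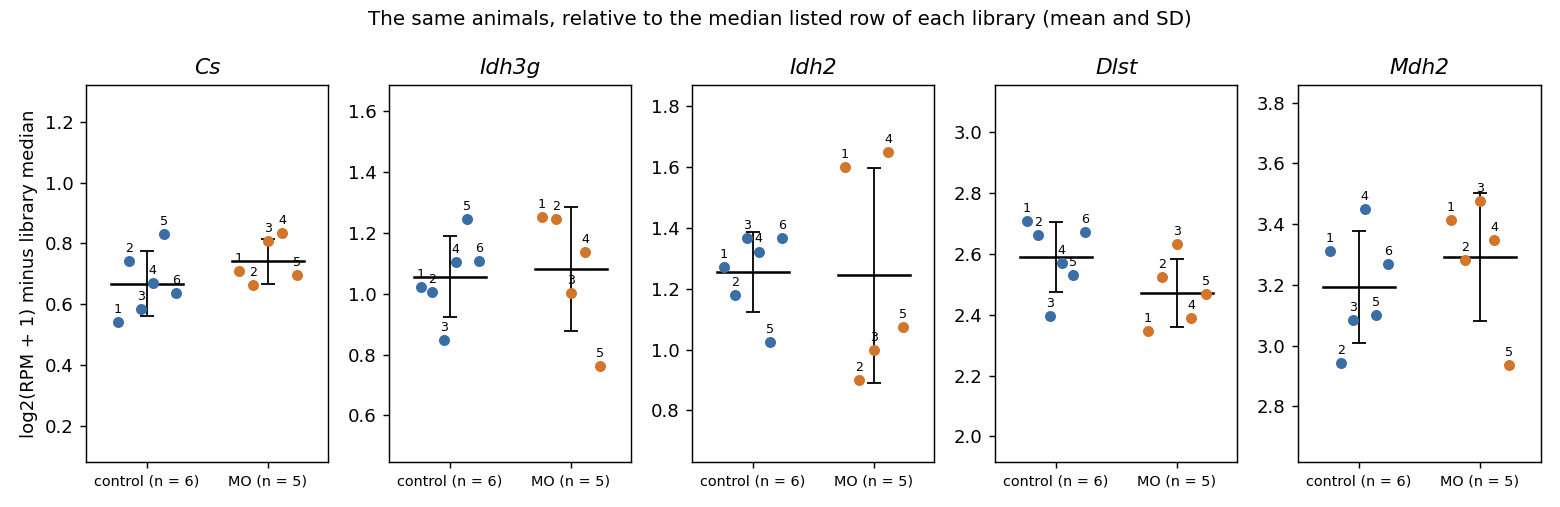
The same 11 animals with each value given as log2(RPM + 1) minus the median listed row of its library; points are animals with their numbers, lines are means and bars SDs, and each panel spans the same range of log2 units around its own mean. The groups overlap in all 5 panels, and for Idh2 the MO males divide into 1 and 4 (1.60 and 1.65) and 2, 3 and 5 (0.90 to 1.08).

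Ratios between 2 members in the same animal do not depend on library scaling. RPM is not divided by transcript length, so such a ratio serves only to compare animals. Of the 10 pairs, Dlst over Mdh2 had the largest difference, 0.661 ± 0.092 in controls (SD, n = 6) against 0.570 ± 0.0941 in MO males (SD, n = 5), a log2 difference of -0.22. The ranges were 0.541 to 0.822 and 0.474 to 0.719 and so overlapped. Cs over Dlst followed, at 0.260 ± 0.0295 (SD, n = 6) and 0.294 ± 0.0278 (SD, n = 5), a log2 difference of 0.19. Cs over Mdh2 was nearly equal in the groups, 0.172 ± 0.0302 (SD, n = 6) and 0.166 ± 0.0224 (SD, n = 5). Idh3g over Idh2, the pair that uses isocitrate, was 0.879 ± 0.158 in controls (SD, n = 6) against 0.912 ± 0.236 in MO males (SD, n = 5). The 5 transcripts together stood at 479 ± 101.6 RPM (SD, n = 6) and 322 ± 59.5 RPM (SD, n = 5). They made up 0.397% ± 0.0271 of the RPM summed over all listed rows, repeated rows included, in controls (SD, n = 6). In MO males this was 0.424% ± 0.0391 (SD, n = 5). These ratios come from the contrast the table was selected on and are given without a test.

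The controls were not alike in Rmrp or in estimated depth. Rmrp, an RNA without a poly(A) tail, was at 1.20 and 1.52 RPM in control males 1 and 5, at 36.9 to 51.2 RPM in the other 4 controls and at 1.71 to 3.11 RPM in MO males. Depth divided the libraries in the same way. It was 10010000 and 11170000 reads in control males 1 and 5 and 7890000 to 9410000 in the other 4 controls. In MO males it was 10530000 to 11590000 reads. Whether Rmrp or depth bears on the members' values was not tested. Against control males 1 and 5 alone, the 5 members were still lower in MO males, by -0.46 ± 0.21 for Cs, -0.57 ± 0.23 for Idh3g, -0.42 ± 0.29 for Idh2, -0.66 ± 0.21 for Dlst and -0.43 ± 0.25 for Mdh2 (log2, SE). With these 2 controls only Dlst passed (limma adjusted p = 0.03; 0.056 to 0.18 for the other 4), as did 531 of 1365 rows. Against control males 2, 3, 4 and 6 all 5 passed, at -0.52 to -0.72, as did 1327 of 1365 rows.

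Rows whose ups and downs among animals were most like those of a member were found from the root mean square difference of log2 deviations from the group means over the 11 libraries. For Cs these were Fbxo6, a ubiquitin ligase subunit (0.064 log2 units), Pelp1 (0.0774) and the histone methyltransferase Suv420h2 (0.0786), with a median over all rows of 0.225. For Idh3g they were Mtg2, a GTPase of the mitochondrial ribosome (0.06), Dmap1 (0.0838) and the FAD synthetase Flad1 (0.0838). For Dlst they included Amt of the glycine cleavage system (0.0573) and the mitochondrial threonyl-tRNA synthetase Tars2 (0.0612). For Mdh2 they were the dehydrogenase/reductase Dhrs1 (0.0978), Tma7 (0.102) and the prefoldin subunit Pfdn6 (0.108). Idh2 had no row as close, and the nearest were the phosphatase Ssh3 (0.132), Ndufs8 of respiratory complex I (0.15) and Dtnbp1 (0.154). Its distances were larger in general, with a median over all rows of 0.323 against 0.225 to 0.28 for the other members. The members differed from each other by 0.135 (Cs and Dlst) to 0.299 (Idh2 and Dlst), so each had rows of other genes nearer than any other member. The nearest rows were picked from the whole table, which offers far more candidates than the few other members. This comparison therefore cannot show whether the members vary together. A shift that a library shares equally across rows cancels in these distances, and those of the 10 pairs of members were the same relative to the library medians.

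Of a list of 24 TCA cycle genes, including subunits, cytosolic forms and assembly factors, the 5 members are those in the male table, and the other 19 are not analysed here. Of 181 genes in 8 lists of neighbouring steps 24 were in the table, 23 of them lower and 1 higher. That is at the background, as 96.5% of all rows were lower, and the same holds for the single lists below. The median log2 fold change of the 24 was -0.55 beside -0.58 for all rows. None of these 181 was in the female table (0 of 181). The higher one was Pdk4, a kinase that switches off pyruvate dehydrogenase and so the entry of pyruvate carbon. Controls averaged 14.9 ± 3.30 RPM (SD, n = 6) and MO males 50.6 ± 18.4 RPM (SD, n = 5). In Pdk4 5 of 5 MO animals exceeded every control, as in 10 of 1365 rows. In limma the log2 difference was 1.66 ± 0.21 (SE, adjusted p = 2e-05), and relative to the library medians it was 2.24. Setting values relative to the library medians moved the difference of every row upward by the same amount. The other listed gene of that step, Pdpr, the regulatory subunit of pyruvate dehydrogenase phosphatase, was at -0.80 ± 0.20 (SE).

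Among genes that feed the cycle or draw from it 4 of 20 were listed, all lower, like 96.5% of all rows. The largest differences were those of the mitochondrial malic enzyme Me3 (-0.70 ± 0.18, SE), the alanine aminotransferase Gpt2 (-0.69 ± 0.23, SE) and the mitochondrial aspartate aminotransferase Got2 (-0.54 ± 0.17, SE). Got2 stood at 459 ± 95.1 RPM in controls (SD, n = 6) against 310.8 ± 23.6 RPM in MO males (SD, n = 5). All 5 MO animals were below the lowest control, as in 29.9% of all rows. Got2 was at 0.044 relative to the library medians (limma adjusted p = 0.997). Of 14 metabolite carriers the dicarboxylate carrier Slc25a10 (-0.62 ± 0.20, SE) and the citrate carrier Slc25a1 (-0.51 ± 0.19, SE) were listed. These values are within the range of the 5 members.

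The enzymes related to the complex that holds Dlst gave 6 listed genes of 19, all lower, like 96.5% of all rows. Gldc of the glycine cleavage system (-1.39 ± 0.22, SE) stood apart, and relative to the library medians it was at -0.81 (limma adjusted p = 0.033). Dhtkd1, the 2-oxoadipate dehydrogenase, which uses the same Dlst subunit, averaged 309.8 ± 63.5 RPM in controls (SD, n = 6) against 188 ± 25.3 RPM in MO males (SD, n = 5), a log2 difference of -0.70 ± 0.18 (SE) beside -0.70 for Dlst. The lipoyl synthase Lias, which makes the lipoyl group these complexes carry, was at -0.57 ± 0.16 (SE). In Lias 5 of 5 MO animals were below every control, as in 29.9% of all rows. Lias was at 0.0098 relative to the library medians (limma adjusted p = 0.997). Relative to the library medians, Pdk4 and Gldc were the 2 of these 24 genes that passed, beside 5.27% of all rows. All 48 higher rows of the table passed on that scale, so the pass of Pdk4 does not set it apart from them. Of all rows, 1.76% passed as lower, as Gldc did.

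In fatty acid beta-oxidation, a major source of acetyl-CoA in liver, and ketone body metabolism, 3 of 21 genes were listed. These 3 were lower, like 96.5% of all rows. Among them were the ketone body enzyme Bdh1 (3-hydroxybutyrate dehydrogenase; -0.68 ± 0.19, SE) and the enoyl-CoA hydratase Echs1 (-0.51 ± 0.16, SE). Respiratory complex I, which takes up the NADH of the cycle, had 5 of 37 genes listed, among them Ndufv3 (-0.58 ± 0.21, SE), Ndufb10 (-0.56 ± 0.18, SE) and Ndufs8 (-0.55 ± 0.18, SE). Complexes III, IV and V had 2 of 36, the ATP synthase subunit Atp5i (-0.55 ± 0.20, SE) and the complex III subunit Uqcr11 (-0.49 ± 0.19, SE). Of 21 regulators of mitochondrial genes 0 were in the table, so they are not analysed here.

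**Figure D4:**
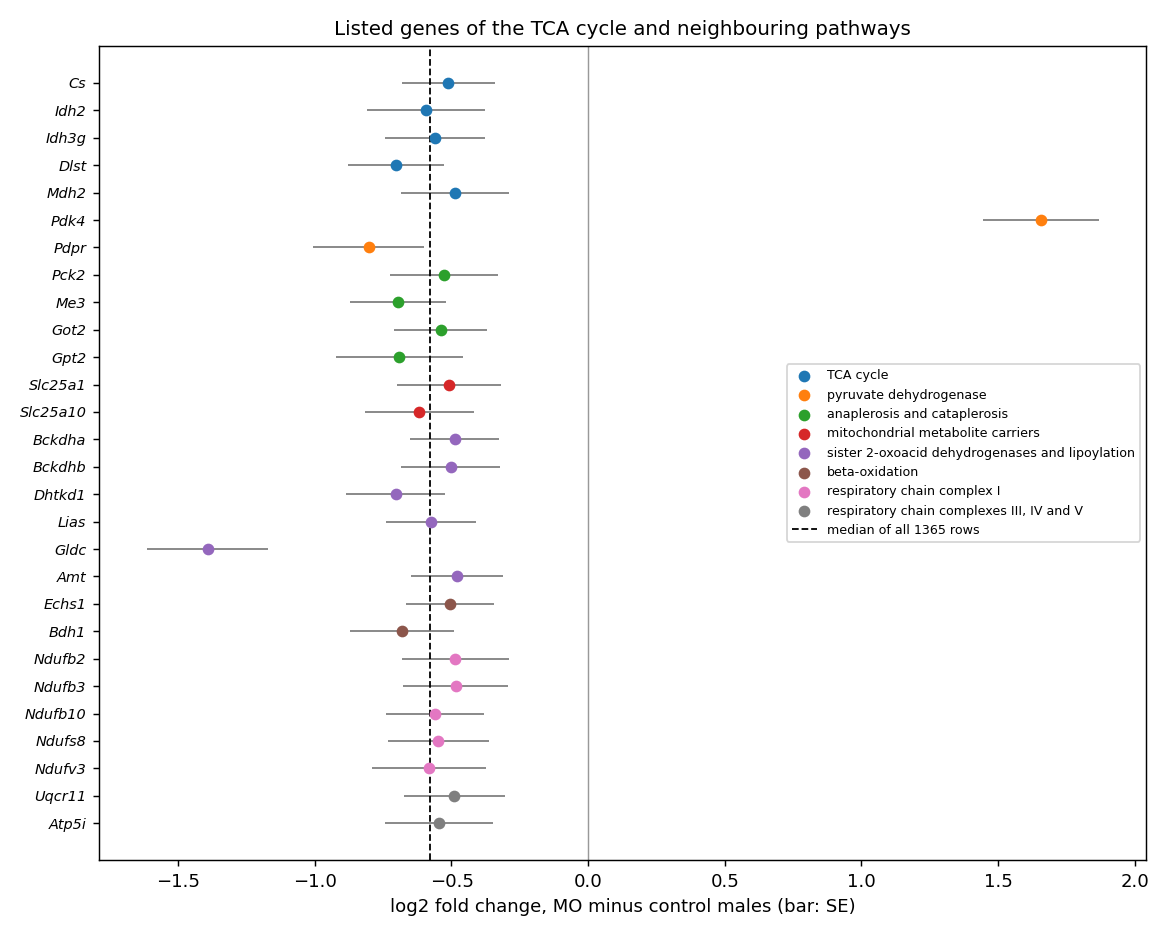
Log2 fold change, MO minus control males (horizontal axis, with SE bars), of 28 listed genes of the TCA cycle and of neighbouring pathways (vertical axis, coloured by list); the dashed line is the median of all 1365 rows at -0.58. All genes shown but Pdk4 (1.66) lie to the left of 0, and Gldc (-1.39) and Pdk4 lie farthest from the dashed line.

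Of 10 hepatocyte markers only Cps1 was in the table (1265 ± 362 RPM, SD, n = 6; 857 ± 51.5 RPM, SD, n = 5), so the tissue label could not be checked with the others. Of 55 markers of 7 other cell types 8 were listed, all lower, like 96.5% of all rows. The sum of the 3 stellate cell markers was 42.6 to 55.5 RPM in controls and 29.0 to 34.3 RPM in MO males, and that of the 2 endothelial markers was 81.8 to 148 RPM and 52.4 to 78.7 RPM. The bile duct markers stood at 11.4 to 18.0 RPM and 6.17 to 13.4 RPM, the 1 lymphocyte marker at 0.574 to 1.65 RPM and 0.176 to 0.661 RPM, and no Kupffer cell, neutrophil or erythroid marker was listed. In bulk tissue fewer cells of a type and less RNA per cell cannot be told apart, and the part of cell composition in the members' values was not tested.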

How the data were processed

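RNA was sequenced from 22 livers, and the 11 male libraries were used here. STAR 2.3.1j, Partek and rn5 are named, per the submitters' processing notes, with no roles, and the sources used here give no counting rule. The deposited values of each animal are RPM with 1 added by the authors, as inferred from the values (lowest value 1). Low values were whole multiples of 1 step per library for 81.4% to 87.2% (tolerance 0.02 reads), so whole reads were not recovered and no count model was run. The steps put depth at 7890000 to 11170000 reads in controls and 10530000 to 11590000 in MO males. The p-values and log2 sizes deposited by the authors were recovered for 1365 of 1365 rows, as differences of mean log2 values and the unadjusted p of an equal-variance model.

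MO and control males were compared on log2(RPM + 1) in limma (version 3.58.1 under R 4.3.3, with a mean-variance trend) over all rows, without covariates or a filter on low values, with Benjamini-Hochberg adjustment over the table and a threshold of 0.05. Rows had been listed for a small p, so this is no false discovery rate over expressed transcripts, and the spread is estimated from selected rows. The script was tested on simulated data. Those rows were drawn independently, without a shared library shift or selection for a difference, so that test does not cover these features of the table. Alternatives were another pseudocount, a filter on low values, centring on library medians, other tests, 1 row per gene, a replicate block, other controls and leaving out each animal. Named genes were the 5 members, the 3 nearest rows of each and up to 3 listed genes per pathway list; Rmrp was named with the controls it sets apart. Of the genes this rule names, 2 are not reported here. The members and lists were chosen with earlier results of these data known. Promoters (5 of 5 members matched by gene ID) are RefSeq's, GRCr8; coordinates of the deposited table's build were not used. Figures were drawn with matplotlib 3.10.9.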

Additional observations from a re-analysis of the deposited data

Results flagged for a closer look

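Control male 6 stood apart from the other controls for 2 of the 5 members. For Cs it was at 46.1 RPM with the next control at 35.2 RPM, and for Idh3g at 64.4 RPM with the next at 47.3 RPM; in each case the gap to the nearest control was over Dixon's 95% critical value for 6 samples. Of 20 groups of values examined (5 genes, 2 scales, 2 groups) 2 were marked in this way, and chance marks about 1 in 20. Relative to its library median control male 6 was at 0.64 for Cs and 1.11 for Idh3g, inside the range of the other controls, and 0 of the 10 groups on that scale were marked.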

How the results depend on the processing

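The members' differences kept their direction and their side of the threshold with rows of at least 1 RPM, a pseudocount of 0.1, an equal-variance model, an exact permutation test, 1 row per gene and control males 2, 3, 4 and 6. Nearly all rows tested passed in each of these settings too. Centring on library medians gave 72 passing rows and 0 passing members, with Cs at 0.0737, Idh3g at 0.0243, Mdh2 at 0.0978, Idh2 at -0.0102 and Dlst at -0.12; by its construction it subtracts the shift that the listed rows share. With control males 1 and 5 alone 531 rows and 1 member passed (Cs -0.46, Idh3g -0.57, Idh2 -0.42, Mdh2 -0.43); this fit has fewer samples. Leaving out 1 animal at a time left 1282 to 1364 rows and 3 to 5 members past the threshold. The ranges were -0.57 to -0.43 for Cs, -0.63 to -0.44 for Idh3g, -0.74 to -0.46 for Idh2, -0.76 to -0.60 for Dlst and -0.58 to -0.36 for Mdh2. With the replicate number as a block (replicates 1 to 5) 1343 rows and 5 members passed, with Cs at -0.43, Idh3g at -0.46, Idh2 at -0.49, Dlst at -0.60 and Mdh2 at -0.38. The numbers share no stated litter or day; correlations of same-numbered deviations were -0.098 to 0.154, and 1 of 5 controls correlated best with its own number. A fit over both sexes and levels per coding length were not run, since no member is in both tables and no length was used. The lowest member values stand for about 209 reads (Cs) to 1165 reads (Mdh2), a counting error of 6.92% to 2.93%.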
